A study of Mus musculus with 12 samples.

Results

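The integrin and laminin gene families were chosen as rows of the expression tables whose gene symbol is Itga or Itgb with a chain number or letter, or Lama, Lamb or Lamc with a chain number. Of the 20325 genes, 36 are described. They comprise 18 integrin alpha chains, 8 integrin beta chains and 10 laminin chains, and the rule itself uses no measured value. RNA was sequenced from mouse pre-iPSCs, cells stalled late in reprogramming that resemble ESC colonies in shape but keep the Nanog-GFP reporter silent. The line was picked as a colony from Nanog-GFP fibroblasts transduced with retroviral Oct4, Sox2, c-Myc and Klf4, so all groups carry these transgenes and the reporter and represent 1 clonal line, maintained on irradiated feeders and treated without them. The cells were exposed for 48 h to DMSO (the vehicle control), ascorbic acid (AA, 50 µg/ml), 2i (1 µM of the MEK inhibitor and 3 µM of the GSK inhibitor) or AA+2i (both additions at the same doses). Each of the 4 groups has 3 biological replicates, lettered A, B and C, giving 12 libraries, and the comparisons ask how each addition and the combination altered these genes in the late stage of reprogramming.

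Laminins are the large trimeric proteins of basement membranes, each assembled inside the cell from an alpha, a beta and a gamma chain before it is secreted. Integrins are heterodimers of an alpha and a beta chain that hold cells to laminins, fibronectin, collagens and other ligands and that signal through focal adhesions. In the early embryo the trimer of the Lama1 or Lama5, Lamb1 and Lamc1 chains is the usual laminin, whereas Lama3 and Lamb3 belong to a laminin typical of stratified epithelium, where it anchors cells through the integrin of Itga6 and Itgb4. Fibroblasts express mostly integrins that bind fibronectin and collagen.

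The expected counts of a library (reads that RSEM assigned to genes) summed to between 16173322 and 54392719. Levels are given as TPM, which divide the counts by transcript length and by the size of the library and so allow genes to be compared, whereas the tests used the counts. Among the libraries DMSO B stood apart for these families, since the 36 genes held 0.715% of its counts, compared with between 0.249% and 0.386% in the other 11 libraries. DMSO A and AA A stood apart in GC content. For transcripts of 60% GC, the fitted deviation from the mean of all libraries was -1.70 in DMSO A and -1.49 in AA A on the log2 scale, against 1.14 in AA+2i C. For transcripts of 40% GC it was 0.88 in DMSO A and 0.70 in AA A. The labelled cell type was checked against marker lists. Of 10 fibroblast markers 7 were under 1 TPM in every library and 1 (Lum) was listed at 0 in all of them, and the summed level of the list was 3.48 to 11.2 TPM in DMSO, 8.05 to 18.9 in AA, 4.24 to 4.76 in 2i and 6.86 to 9.39 in AA+2i. The 10 markers of pluripotent or late reprogramming cells summed to 305 to 438 TPM in DMSO, 1820 to 2480 in AA, 185 to 223 in 2i and 1020 to 1290 in AA+2i. The largest part in AA and AA+2i was Dppa5a, at 1231.89 to 1664.57 and 511.37 to 763.04 TPM. Nanog was instead higher in AA+2i (31.73 to 40.92 TPM) than in AA (16.8 to 19.6). In 2i Nanog (4.96 to 6.92 TPM) overlapped DMSO (2.93 to 7.14). The sums thus do not rank the groups by pluripotency.

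Of the 36 genes 27 had at least 10 counts in at least 3 libraries and were tested with edgeR's quasi-likelihood test, with p-values adjusted over all 13400 genes tested (Benjamini-Hochberg) and called under 0.05. With 2i, 3 genes fell relative to DMSO (Lama3, Lamb1 and Itga9), where 2.83% of all genes tested were called lower. With AA+2i, 5 fell (the same 3, Lama4 and Itgb2) against 4.41% of all genes tested. Itga9 passed the count filter only through libraries without 2i, where it was high, and Itgb2 passed through no AA+2i library, so these genes are not read against the shares of all genes. No member was called higher with 2i (1.59% of all genes) or with AA+2i (3.93% of all genes). At an unadjusted p under 0.05, 0 members were higher with 2i and 1 with AA+2i in edgeR, and neither DESeq2 nor limma called any. With AA alone edgeR called 0 members higher (0.866% of all genes) and 0 lower (0.470% of all genes), with 1 and 3 members at an unadjusted p under 0.05, whereas DESeq2 called 1 higher and 2 lower and limma 1 higher and 0 lower. The 27 genes had a median log2 fold change of -0.22 under AA, -0.73 under 2i and -0.76 under AA+2i, beside -0.01, -0.02 and -0.02 over all genes tested. These 3 comparisons share the DMSO libraries, so a deviation there enters all of them. Without DMSO B the medians were 0.35 under AA, -0.07 under 2i and -0.43 under AA+2i. The first thus turned its sign and the others were nearer 0. Under AA the median was also 0.09 without AA A and -0.48 without DMSO A. In bulk RNA, fewer cells that express a gene and less RNA per cell cannot be told apart.

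**Figure D1:**
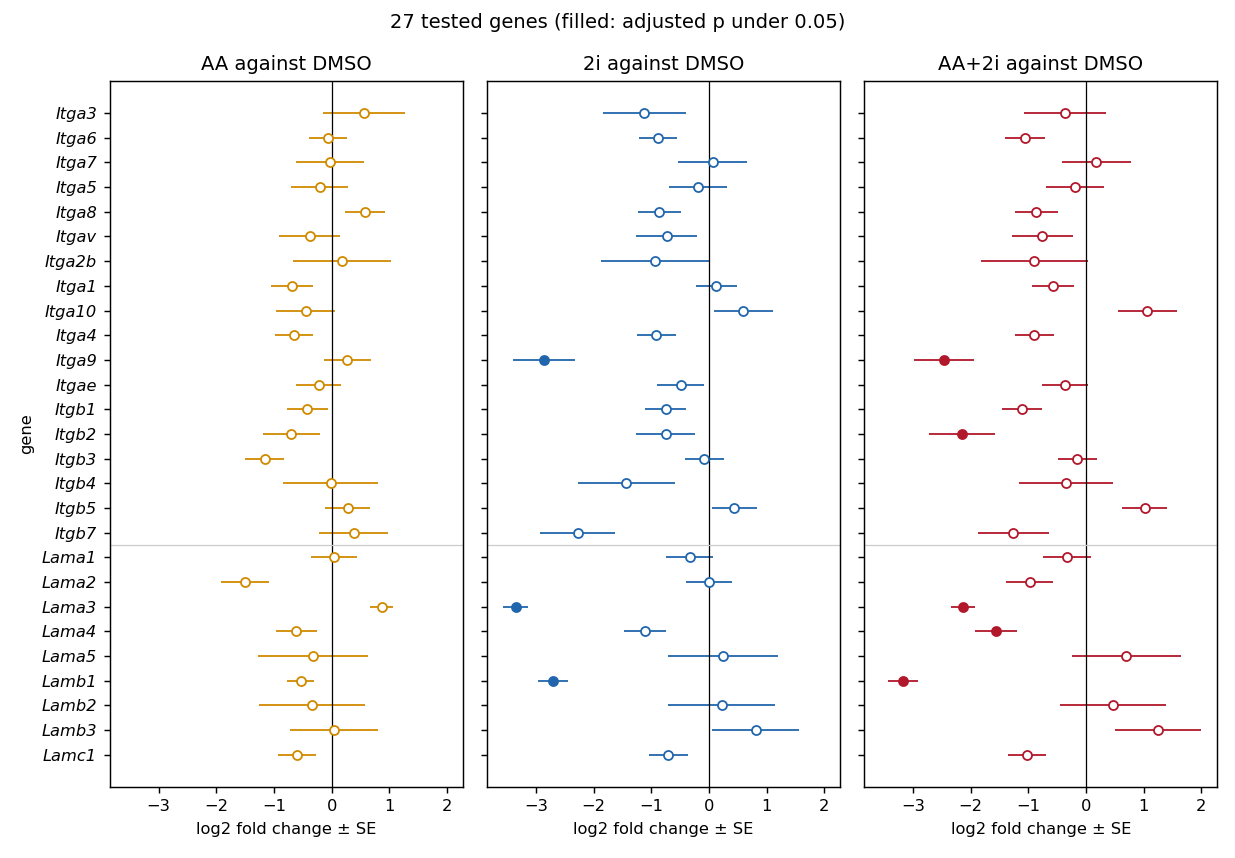
Log2 fold change with its standard error (x axis, edgeR) of the 27 tested integrin and laminin genes (y axis, integrins above the grey line, laminins below) in AA, 2i and AA+2i, each against DMSO; filled points passed an adjusted p of 0.05. Lama3, Lamb1 and Itga9 lie between -3.35 and -2.14 in both comparisons with 2i, while the widest error bars belong to genes of high GC content such as Lama5 and Lamb2.

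Among the laminin alpha chains, Lama3, the alpha chain of the epithelial laminin, spread least between the DMSO libraries of all members tested (1.04-fold from the lowest to the highest). Its level was 5.40, 5.58 and 5.34 TPM in DMSO A, B and C and 10.77, 8.47 and 10.07 TPM in AA A, B and C. In the libraries with 2i it was 0.60, 0.43 and 0.39 TPM, and with AA+2i 1.33, 1.12 and 0.80 TPM. None of the 4 groups overlapped in this gene, and the order of the groups was AA, DMSO, AA+2i and 2i from the highest to the lowest. Relative to DMSO, Lama3 fell by 3.35 ± 0.22 (SE) on the log2 scale with 2i (edgeR adjusted p = 4.42e-05) and fell by 2.14 ± 0.21 with AA+2i (adjusted p = 0.000333). With AA the log2 fold change was 0.87 ± 0.20, which missed the threshold in edgeR (adjusted p = 0.0738) and passed it in DESeq2 (adjusted p = 0.000417), in limma (0.044) and with the GC correction (0.0218). AA+2i exceeded 2i by 1.21 ± 0.21 (adjusted p = 0.0247), the only member called in that comparison, where 0.910% of all genes tested were called. That call was lost when any of 2i A, 2i B, 2i C, AA+2i A or AA+2i B was left out (log2 fold change 1.07 to 1.35, adjusted p 0.0647 to 0.164), with limma and in a fit of only the groups compared. The call of Lama3 in both comparisons with DMSO was kept without any 1 of the 12 libraries.

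Because Lama3 is the alpha chain of stratified epithelium, markers of that tissue were examined beside it. Of the 5 markers 3 were under 1 TPM in every library, Krt5 among them, and the summed level of the list was 0.95 to 3.73 TPM in DMSO, 2.57 to 5.25 in AA, 0.59 to 3.60 in 2i and 3.82 to 21.5 in AA+2i. The last range came mostly from Krt14, at 7.28, 3.34 and 20.9 TPM in AA+2i. Trp63, chosen after its values were seen, was at 0.82, 0.80 and 1.11 TPM in DMSO, 2.20, 1.30 and 1.96 in AA, 0.12, 0.23 and 0.27 in 2i and 0.23, 0.29 and 0.22 in AA+2i. It encodes a transcription factor of epithelial progenitors, and its libraries with 2i lay below those without, as they did for Lama3. The part of such cells in the levels of Lama3 was not tested.

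Lama4, an alpha chain of vessel and muscle basement membranes, was an abundant alpha chain of these cells, at 143.63, 225.80 and 80.12 TPM in DMSO and 121.63, 100.75 and 61.38 TPM in AA. It was at 74.39, 65.43 and 39.85 TPM with 2i and 53.68, 50.93 and 26.18 TPM with AA+2i. Every library with 2i or AA+2i lay below every DMSO library, whereas 2i overlapped AA. Lama4 fell by 1.56 ± 0.36 with AA+2i (edgeR adjusted p = 0.0224), and its log2 fold change was -1.11 ± 0.36 with 2i (adjusted p = 0.122). DESeq2 called Lama4 lower with 2i as well (adjusted p = 0.0448). So did edgeR with the replicate letter as a block in the model (adjusted p = 0.00218), a pairing that the labels do not state. The AA+2i call was lost without DMSO A, DMSO B or any of the 3 AA+2i libraries (log2 fold change -1.71 to -1.27, adjusted p 0.0527 to 0.100), and in a fit of only the groups compared. The 5 endothelial markers summed to 10.4 to 16.7 TPM in DMSO, 7.72 to 13.0 in AA, 8 to 10.7 in 2i and 4.05 to 8.28 in AA+2i, mostly from Tek. Cdh5 (VE-cadherin) was instead higher in the libraries with the inhibitors, at 0.03 to 0.12 TPM in DMSO and AA, 1.34 to 2.35 in 2i and 0.84 to 0.88 in AA+2i, and Vwf had at most 0.13 TPM. The part of such cells in the levels of Lama4 was not tested.

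Lama5, the alpha chain that is broadly used in embryonic and epithelial basement membranes, spread most between the DMSO libraries of all members tested (21.0-fold). It was at 13.51, 283.57 and 68.13 TPM in DMSO A, B and C and at 16.85, 109.48 and 134.96 TPM in AA. With 2i the values were 48.98, 99.05 and 194.55 TPM and with AA+2i 159.86, 95.75 and 207.54 TPM. All groups overlapped, and no comparison was called. Against DMSO, the log2 fold change of Lama5 was -0.32 ± 0.95 in the AA libraries, 0.25 ± 0.95 in those with 2i and 0.70 ± 0.95 in those with AA+2i. Without DMSO B the last 2 were 1.62 ± 1.00 and 2.07 ± 1.02, also not called. Differences of this size could not be told from no change beside the standard errors.

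The remaining alpha chains were scarce. Lama2, the alpha chain of muscle, was at 0.26, 0.26 and 0.15 TPM in DMSO, 0.11, 0.06 and 0.07 in AA, 0.23, 0.21 and 0.15 in 2i and 0.16, 0.10 and 0.05 in AA+2i. Its AA libraries lay below those of DMSO and 2i. Lama2 was 1.5 ± 0.42 higher in 2i than in AA on the log2 scale (edgeR adjusted p = 0.0459), from 6 to 58 counts a library. The call was lost without DMSO B, any AA library, any 2i library or AA+2i B (1.30 to 1.71, adjusted p 0.0528 to 0.198), with limma, with no count filter and in a fit of only the groups compared. Lama1, the alpha chain of the first embryonic basement membranes, was between 0.76 and 2.92 TPM and was not called.

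**Figure D2:**
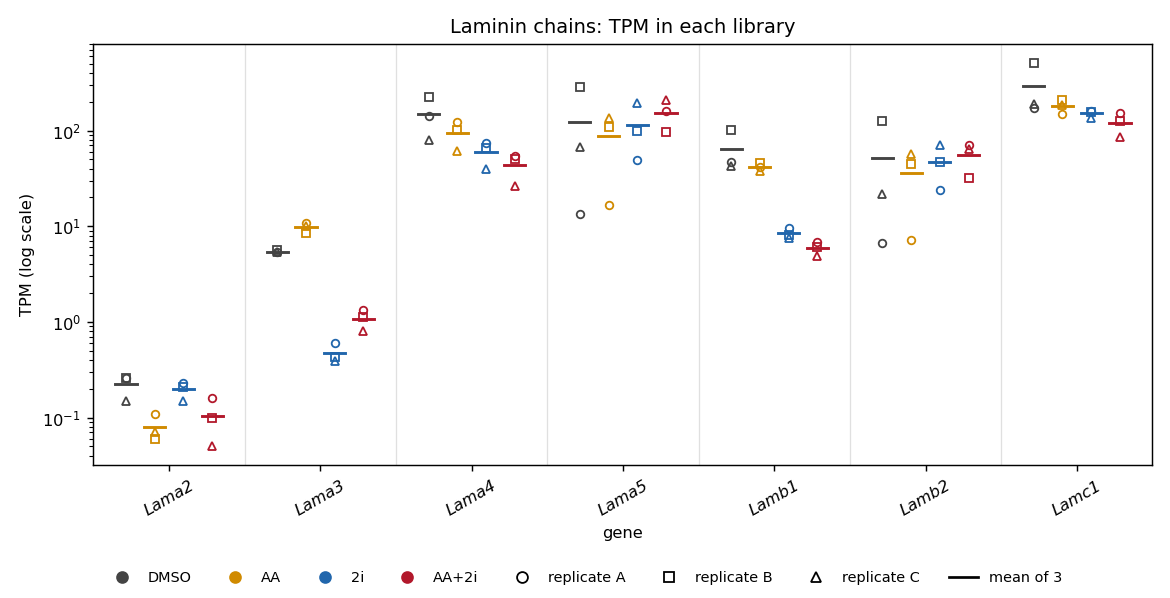
TPM (y axis, log scale) of the 7 laminin genes described by library (x axis), with each symbol a library and each bar the mean of the 3 libraries of a group. Lama3 and Lamb1 show the libraries with 2i below those without it, Lama3 between 0.39 and 1.33 TPM against 5.34 to 10.77, whereas the highest DMSO library exceeded the lowest 21.0-fold for Lama5 and 18.9-fold for Lamb2.

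Of the beta chains, Lamb1 fell with 2i and its close relative Lamb2 was not called. The standard errors of Lamb2 were wide, so the missing call does not show that it was unchanged. Lamb1 (mm9 chr12:31950099-32014509, plus strand), the beta chain of most embryonic laminins, was at 47.23, 102.03 and 42.46 TPM in DMSO and 41.51, 46.17 and 37.95 TPM in AA. It was at 9.49, 8.19 and 7.55 TPM with 2i and 6.89, 6.04 and 4.94 TPM with AA+2i. The 6 libraries with the inhibitors lay between 4.94 and 9.49 TPM, and the 6 without between 37.95 and 102.03. Lamb1 fell by 2.70 ± 0.26 with 2i (edgeR adjusted p = 0.00036) and fell by 3.18 ± 0.26 with AA+2i (adjusted p = 9.7e-05). Without DMSO B, the highest library, the log2 fold changes were -2.32 ± 0.16 and -2.80 ± 0.16 and both calls stood. With AA the log2 fold change was -0.54 ± 0.24 (adjusted p = 0.524).

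Lamb2, the beta chain of muscle, nerve and kidney laminins, was at 6.63, 125.48 and 21.94 TPM in DMSO and 7.20, 44.25 and 56.56 TPM in AA. It was at 23.99, 46.86 and 70.81 TPM with 2i and 70.59, 32.28 and 64.73 TPM with AA+2i. These ranges overlapped, and the log2 fold change was 0.22 ± 0.92 with 2i and 0.47 ± 0.92 with AA+2i. Without DMSO B it was 1.86 ± 0.90 and 2.11 ± 0.91, and no call was made either way. Within a library, Lamb1 made up 87.4%, 44.7% and 65.8% of the beta chain TPM in DMSO A, B and C, compared with 28.1%, 14.8% and 9.5% in 2i and 8.82%, 15.6% and 6.97% in AA+2i. In AA its share was 84.8% in A and 50.8% in B, and in C it was below that of Lamb2. Lamb2 made up most of the beta chain TPM in all 6 libraries with the inhibitors, and also in DMSO B and AA C. The 2 genes differ in GC content (52.5% for Lamb1 and 58.8% for Lamb2). In DMSO A the fitted GC deviation was -0.32 on the log2 scale at Lamb1 and -1.51 at Lamb2. The part of GC content in these shares was not tested. Lamb3, the partner of Lama3 in the epithelial laminin, was between 0.09 and 1.24 TPM in all libraries and was called in no comparison.

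The sequence before an annotated start site is printed for Lamb1 and Itga9, which fell with 2i, and for Lamb2, the relative of Lamb1 that was not called. They are from RefSeq (GRCm38.p6, a later build than that of the expression tables), 250 bases each that end just before the annotated start, 5′ to 3′ on the strand of the gene, with motif matches in capitals.
Lamb1, chr12:31265043-31265292: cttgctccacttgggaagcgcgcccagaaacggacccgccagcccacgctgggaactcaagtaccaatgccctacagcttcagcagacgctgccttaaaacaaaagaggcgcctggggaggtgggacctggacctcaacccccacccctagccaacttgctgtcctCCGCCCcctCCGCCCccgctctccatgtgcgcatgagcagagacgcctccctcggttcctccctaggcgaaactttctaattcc
Itga9, chr9:118711442-118711691: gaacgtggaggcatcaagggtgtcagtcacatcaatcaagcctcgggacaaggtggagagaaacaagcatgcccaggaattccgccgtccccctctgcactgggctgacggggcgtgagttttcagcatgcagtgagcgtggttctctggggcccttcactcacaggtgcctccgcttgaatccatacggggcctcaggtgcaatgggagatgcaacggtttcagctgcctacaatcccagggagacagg
Lamb2, chr9:108479612-108479861: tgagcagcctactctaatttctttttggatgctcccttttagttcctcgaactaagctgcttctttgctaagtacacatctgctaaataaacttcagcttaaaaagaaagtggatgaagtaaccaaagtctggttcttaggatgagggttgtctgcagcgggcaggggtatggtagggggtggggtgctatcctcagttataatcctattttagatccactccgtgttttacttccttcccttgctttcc
The motifs searched on both strands were TCF/LEF (CTTTGAT, the element of beta-catenin, which GSK inhibition stabilises), AP-1 (TGANTCA) and ETS (CCGGAAG), both targets of the MEK pathway, and SP/KLF (GGGCGG). Over all 32841 promoter stretches of this length, 3.21% held the TCF/LEF letters, 6.75% AP-1, 6.91% ETS and 32.7% SP/KLF. The Lamb1 stretch held the SP/KLF letters at 2 places on the opposite strand, 84 to 79 and 75 to 70 bases before the start, and none of the other motifs. The Itga9 and Lamb2 stretches held none of the 4. By position the Itga9 stretch probably precedes a start inside the gene, whose mm9 span is chr9:118515808-118810121. The Itga9 stretch ends farther beyond the mm9 gene start than the Lamb2 stretch does beyond its own (108382193). The sequence before the first start of Itga9 was then not searched. The GC content of the stretch was 62.0% for Lamb1, 58.4% for Itga9 and 43.6% for Lamb2, with a median of 52.4% over all stretches. Of the 36 members 23 had an entry, with 26 stretches in all, of which 0 held the TCF/LEF letters, 1 AP-1 (Itgax), 1 ETS (Itga3) and 9 SP/KLF.

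Among the gamma chains, Lamc1, the gamma chain of most laminins, was at 174.25, 507.61 and 190.57 TPM in DMSO, 148.77, 208.45 and 184.13 in AA, 161.05, 157.58 and 135.97 in 2i and 151.23, 124.88 and 85.13 in AA+2i. It was the most abundant laminin transcript in 9 of the 12 libraries, and the libraries with 2i overlapped those with AA. The log2 fold change of Lamc1 was -0.70 ± 0.33 with 2i (adjusted p = 0.325) and -1.03 ± 0.33 with AA+2i (adjusted p = 0.0836). Without DMSO B, where Lamc1 was highest, these were -0.17 ± 0.22 and -0.50 ± 0.22, and without DMSO A the latter was called (-1.26 ± 0.32, adjusted p = 0.0488). With all libraries DESeq2 called Lamc1 lower with AA+2i (adjusted p = 0.0291) and not with 2i (0.268). With the replicate letter as a block, edgeR also called Lamc1 lower with AA+2i (adjusted p = 0.0342) and not with 2i (0.176). Lamc3 had at most 0.09 TPM and was not tested.

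Levels relative to Lamc1 within a library do not depend on its total. For every 100 TPM of Lamc1 there were 27.1, 20.1 and 22.3 TPM of Lamb1 in DMSO A, B and C, and 27.9, 22.1 and 20.6 in AA. The ratio was 5.89, 5.20 and 5.55 with 2i, and AA+2i gave 4.56, 4.84 and 5.80. DMSO B, which had the highest Lamb1 level, was the lowest of the DMSO libraries in this ratio. Lama3 was at 2.33 ± 1.08 per 100 TPM of Lamc1 in DMSO (SD, n = 3), 5.59 ± 1.59 in AA, 0.311 ± 0.054 in 2i and 0.905 ± 0.031 in AA+2i. For Lama3 the AA+2i libraries lay above the 2i libraries, and for Lamb1 these groups overlapped. These ratios are descriptions, and no test was applied to them.

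**Figure D3:**
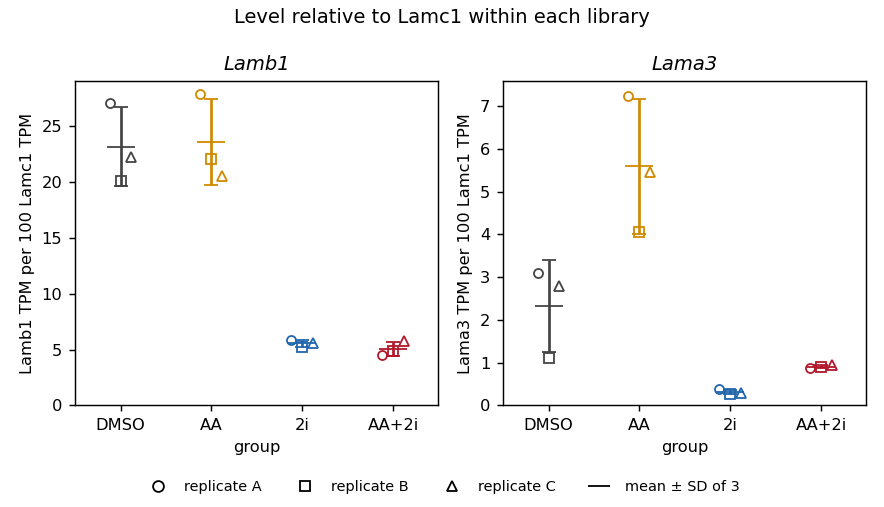
TPM of Lamb1 and Lama3 for every 100 TPM of Lamc1 in the same library (y axis, from 0) by group (x axis); open symbols are libraries and bars are the mean with its SD over 3 libraries. Lamb1 had means of 23.2 and 23.6 in DMSO and AA and of 5.55 and 5.07 in 2i and AA+2i.

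Of the integrin alpha chains that bind laminin, Itga6, whose product pairs with Itgb1 or Itgb4, was the most abundant integrin alpha transcript in every library, with between 39.1% and 76.6% of the alpha chain TPM. It was at 243.83, 271.40 and 141.61 TPM in DMSO and 287.90, 182.32 and 145.90 in AA. It was at 139.54, 100.78 and 73.66 TPM with 2i and 120.80, 104.62 and 50.01 TPM with AA+2i. The 6 libraries with the inhibitors all lay below the 6 without, the highest of the former at 139.54 and the lowest of the latter at 141.61 TPM. The log2 fold change was -0.88 ± 0.33 with 2i (edgeR adjusted p = 0.21) and -1.06 ± 0.34 with AA+2i (adjusted p = 0.0795), so neither passed in the main edgeR fit. DESeq2 called Itga6 lower with AA+2i (adjusted p = 0.0283) and not with 2i (0.129). With the replicate letter as a block in the model, edgeR called both. The log2 fold changes were then -0.87 ± 0.14 with 2i (adjusted p = 0.00444) and -1.09 ± 0.14 with AA+2i (adjusted p = 0.000889). The labels do not state that the letters pair the libraries. Relative to Itgb1, Itga6 was at 48.5 ± 2.84 per 100 TPM in DMSO (SD, n = 3), 63.4 ± 6.59 in AA, 44.0 ± 0.971 in 2i and 49.1 ± 5.27 in AA+2i.

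Itga3, which also binds the epithelial laminin, was at 11.97, 130.84 and 48.82 TPM in DMSO, 26.51, 104.25 and 126.90 in AA, 16.12, 22.56 and 33.09 in 2i and 48.33, 30.90 and 41.69 in AA+2i. The DMSO range spanned that of every other group, and the log2 fold change was -1.12 ± 0.72 with 2i (edgeR adjusted p = 0.489), or -0.22 ± 0.71 without DMSO B. Itga7, the laminin receptor of muscle, was between 1.69 and 14.43 TPM and was called in no comparison.

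Among the alpha chains that bind fibronectin and other ligands with the RGD motif, Itga5, the classical fibronectin receptor, was at 5.78, 35.93 and 19.01 TPM in DMSO, 9.25, 18.60 and 21.03 in AA, 12.53, 14.65 and 17.34 in 2i and 14.78, 14.01 and 15.20 in AA+2i. Itgav, which binds vitronectin and activates latent TGF-beta, was at 46.57, 45.87 and 14.63 TPM in DMSO, 47.64, 19.36 and 14.17 in AA, 29.07, 16.92 and 10.91 in 2i and 25.79, 20.03 and 9.39 in AA+2i. For both genes the groups overlapped and no comparison was called. Itga8, a receptor of nephronectin, was scarce, at 0.38, 0.33 and 0.29 TPM in DMSO, 0.68, 0.34 and 0.47 in AA, 0.21, 0.10 and 0.18 in 2i and 0.19, 0.16 and 0.13 in AA+2i. All libraries with the inhibitors lay below all without. Relative to AA, Itga8 fell by 1.44 ± 0.36 with 2i (adjusted p = 0.0291) and fell by 1.44 ± 0.36 with AA+2i (adjusted p = 0.0396), and relative to DMSO its log2 fold change was -0.86 ± 0.37 with each (adjusted p = 0.283 and 0.181). The call in 2i against AA was lost without AA A, AA C or any 2i library (-1.64 to -1.16, adjusted p 0.0549 to 0.131) and in a fit of only the groups compared. That in AA+2i against AA was lost without DMSO C, AA A, AA C, 2i A, 2i C or any AA+2i library (-1.52 to -1.20, adjusted p 0.0523 to 0.146), in the same restricted fit and with no count filter. Itga2b, the platelet chain, had at most 0.83 TPM.

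Itga9, a receptor of tenascin and osteopontin, had the largest decrease of the integrins with 2i, at very low levels. Its TPM was 0.10, 0.26 and 0.21 in DMSO, 0.26, 0.19 and 0.25 in AA, 0.01, 0.05 and 0.02 in 2i and 0.04, 0.02 and 0.04 in AA+2i. These values rest on 6, 41 and 11 counts in DMSO and 16, 35 and 22 in AA, and on 1, 3 and 1 counts in 2i and 3, 1 and 3 in AA+2i. No library with the inhibitors reached the lowest library without them. The summed counts per total count were 0.118 times those of DMSO in 2i (95% exact binomial interval 0.0371 to 0.293) and 0.157 times in AA+2i (0.0603 to 0.344), intervals that cover counting error only. Since the count filter was met only through DMSO and AA libraries, where the gene was high, the filter favoured a lower value in the other groups. In edgeR, Itga9 fell by 2.86 ± 0.54 with 2i (adjusted p = 0.0138) and fell by 2.47 ± 0.52 with AA+2i (adjusted p = 0.0137). The 2i call was lost without DMSO B, 2i A or 2i C (-2.71 to -2.59, adjusted p 0.0549 to 0.0677) and the AA+2i call without DMSO B or AA+2i B (-2.21 to -2.06, adjusted p 0.0546 to 0.0591). Neither was called by limma on log2(TPM + 1), and with at least 10 counts in every library, or in a fit of only the groups compared with DMSO, Itga9 was not tested. Itga4, its nearest relative among the alpha chains, was between 1.59 and 6.90 TPM, with a log2 fold change of -0.91 ± 0.34 with 2i (adjusted p = 0.19).

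**Figure D4:**
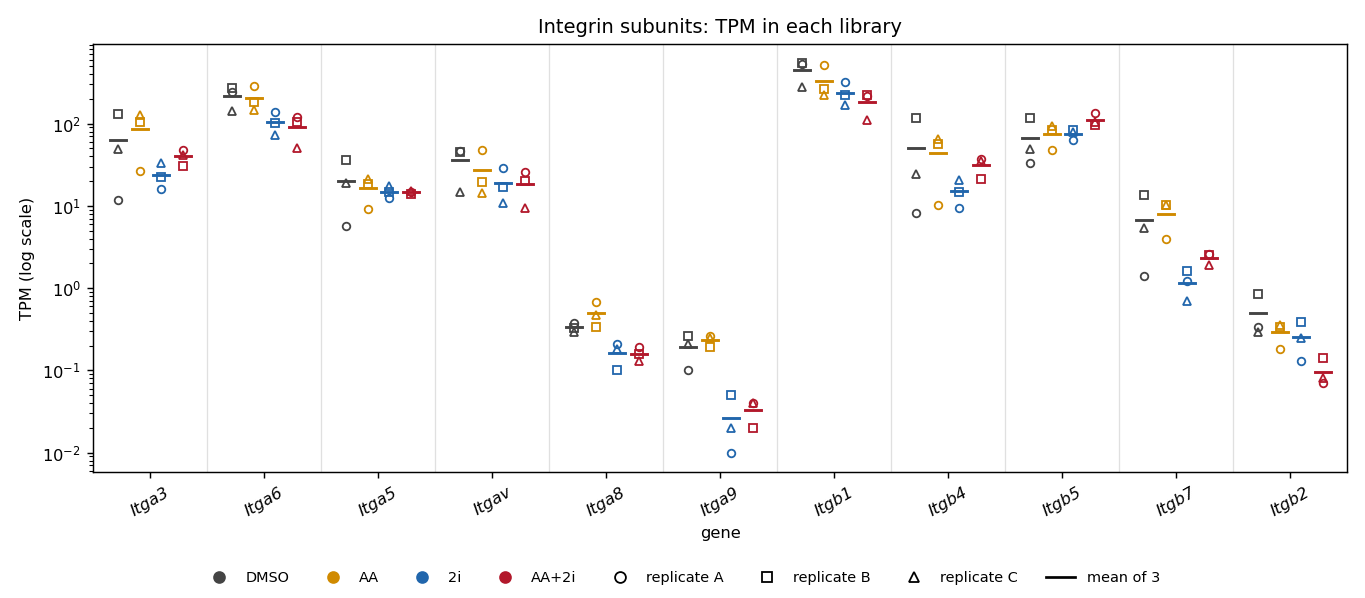
TPM (y axis, log scale) of the 11 integrin genes described by library (x axis), with each symbol a library and each bar the mean of the 3 libraries of a group. Itgb1 and Itga6 are the highest, Itga9 falls from 0.10 to 0.26 TPM in DMSO and AA to 0.01 to 0.05 in 2i and AA+2i, and Itga3, Itgb4 and Itgb7 spread widely within DMSO and AA.

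Itgb1, the common beta chain of most laminin, collagen and fibronectin receptors, was at 539.01, 540.28 and 282.85 TPM in DMSO, 511.16, 262.78 and 226.40 in AA, 320.10, 223.38 and 170.07 in 2i and 219.79, 220.39 and 111.63 in AA+2i. It held between 44.1% and 92.4% of the beta chain TPM of a library. The AA+2i libraries lay below those of DMSO and AA, and the log2 fold change against DMSO was -1.11 ± 0.35 (edgeR adjusted p = 0.0813). With 2i it was -0.75 ± 0.35 (adjusted p = 0.326). In DESeq2 Itgb1 was called lower with AA+2i (adjusted p = 0.0271) and not with 2i (0.267). With the replicate letter as a block, edgeR called Itgb1 lower with AA+2i (adjusted p = 0.00227) and with 2i (0.0236). Itgb4, the partner of Itga6 in hemidesmosomes, was at 8.17, 118.18 and 24.50 TPM in DMSO, 10.37, 57.09 and 65.49 in AA, 9.44, 14.61 and 20.87 in 2i and 37.37, 21.33 and 35.06 in AA+2i. Itgb5, a partner of Itgav, was at 33.16, 117.25 and 49.04 TPM in DMSO, 48.05, 84.75 and 93.53 in AA, 64.03, 82.96 and 80.09 in 2i and 136.70, 95.91 and 103.74 in AA+2i. Neither was called. The AA+2i libraries of both lay above the 2i libraries. Without DMSO B, Itgb5 was 1.57 ± 0.35 higher with AA+2i than with DMSO (adjusted p = 0.0309), against 1.02 ± 0.39 with all libraries (adjusted p = 0.138).

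Itgb7 and Itgb2 are the beta chains best known from leukocytes. Itgb7, a partner of Itga4 and Itgae, was at 1.42, 13.47 and 5.35 TPM in DMSO, 3.98, 10.13 and 10.17 in AA, 1.22, 1.61 and 0.69 in 2i and 2.61, 2.51 and 1.89 in AA+2i. Relative to AA it fell by 2.64 ± 0.65 with 2i (edgeR adjusted p = 0.0258), a call lost without AA B, AA C or any 2i library (-2.95 to -2.40, adjusted p 0.0634 to 0.104). Against DMSO the log2 fold change was -2.27 ± 0.65 with 2i (adjusted p = 0.0806) and -1.26 ± 0.62 with AA+2i (adjusted p = 0.227), or -1.43 ± 0.59 and -0.43 ± 0.58 without DMSO B. Without DMSO A, Itgb7 fell by 2.73 ± 0.49 with 2i (adjusted p = 0.0154). Itgb2, the beta chain of the leukocyte adhesion receptors, was at 0.34, 0.86 and 0.29 TPM in DMSO, 0.18, 0.34 and 0.36 in AA, 0.13, 0.39 and 0.25 in 2i and 0.07, 0.14 and 0.08 in AA+2i, from 2 to 55 counts. It fell by 2.15 ± 0.57 with AA+2i against DMSO (adjusted p = 0.0396). That call was lost without DMSO A, DMSO B, AA B, AA C, 2i C or any AA+2i library (-2.46 to -1.57, adjusted p 0.0518 to 0.146) and with limma. Of the 7 leukocyte markers in the tables Tyrobp was listed at 0 in all libraries, Ptprc had at most 0.03 TPM, and the summed level was 32.9 to 107 TPM in DMSO and 34.6 to 45 in AA+2i, mostly from Laptm5 and Cd68.

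The 2 additions were also compared with each other and tested for interaction. In 2i against AA, 6 members were called, where 9.45% of all genes tested were. Of these Lama2 was higher, and Lama3 (which fell by 4.21 ± 0.23 on the log2 scale), Lamb1, Itga8, Itga9 and Itgb7 were lower with 2i. In AA+2i against AA, 4 were called, all lower with AA+2i (Lama3, Lamb1, Itga8 and Itga9), where 6.10% of all genes were called. The log2 fold change of Lamb1 was -2.16 ± 0.25 in the former and -2.64 ± 0.26 in the latter. Itga9 met the count filter only through libraries without 2i, so its calls in both comparisons are not read against the shares of all genes. Both Itga9 calls were lost without letter B and without letter C. The interaction, which asks whether AA had another effect with 2i than without, was called for 0 of the 27 members (0.0149% of all genes tested). In edgeR 1 member had an unadjusted p under 0.05, and DESeq2 and limma called 0. For Lama3 the interaction was 0.34 ± 0.29, so the log2 fold change with AA was 0.87 ± 0.20 without 2i and 1.21 ± 0.21 with it.

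The spread within DMSO followed GC content. Across the 27 tested members the log2 ratio of TPM in DMSO B to that in DMSO A had a Pearson correlation with the GC content of the transcript of 0.90, a description over genes of the same 2 libraries. In the 10 members with a GC content of at least 57% (Lamb3, Itga5, Itga7, Itgb5, Itga3, Itgb7, Itga2b, Lamb2, Lama5 and Itgb4) the ratio was between 1.82 and 4.39, and in the other 17 between -0.20 and 2.27. Lama3 (51.3% GC) was at 0.05 and Lamb1 (52.5%) at 1.11, whereas Lama5 (59.9%) was at 4.39 and Lamb2 (58.8%) at 4.24. The members called against DMSO all had a GC content under 57%. With a GC curve for each library in the model, the standard error of Itgb4 with 2i went from 0.84 to 0.36 and its log2 fold change from -1.43 to -1.67 (adjusted p = 0.01), and that of Itga3 from -1.12 to -1.35 (adjusted p = 0.0167). Itgb7 then fell by 2.39 ± 0.44 with 2i and fell by 1.70 ± 0.42 with AA+2i. Itga6, Itgb1 and Lamc1 passed the threshold in AA+2i against DMSO with this correction (log2 fold changes of -0.96 ± 0.27, -0.78 ± 0.20 and -1.22 ± 0.28). The correction was not run without DMSO B. Without that library and with no correction, Itgb4 was at 0.00 ± 0.75 with 2i and 1.07 ± 0.77 with AA+2i, and Itga3 at -0.22 ± 0.71 and 0.53 ± 0.72, so their uncorrected log2 fold changes rest on it.

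**Figure D5:**
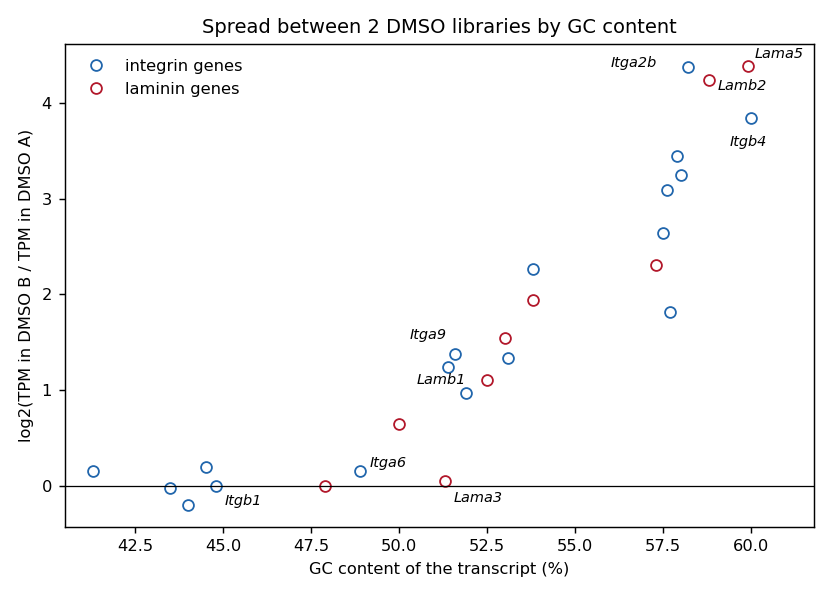
Log2 ratio of the TPM in DMSO B to that in DMSO A (y axis) against the GC content of the transcript in percent (x axis) for the 27 tested genes, integrins in blue and laminins in red. Members of at least 57% GC, such as Lama5, Lamb2 and Itgb4, lie between 1.82 and 4.39, and Lama3 lies at 0.05.

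The other members were scarce. In all, 15 of the 36 were under 1 TPM in every library. The 9 that were not tested (Itga2, Itga11, Itgad, Itgal, Itgam, Itgax, Itgb6, Itgb8 and Lamc3) had at most 0.11 TPM. Of these Itgad and Itgax, leukocyte chains that lie beside Itgam on chromosome 7, had 0 counts in all 12 libraries, which allows up to 3 counts a library, or between 0.0552 and 0.185 CPM. Itga1, a collagen receptor, was between 0.69 and 2.11 TPM, and Itga10, a collagen receptor of cartilage, between 0.22 and 1.55. Itgae, the partner of Itgb7 in intraepithelial lymphocytes, was between 0.15 and 0.45. Itgb3, the platelet and osteoclast beta chain, was between 0.46 and 1.69 TPM, and its AA libraries (0.46, 0.54 and 0.69) lay below those of DMSO (0.86, 1.69 and 1.38), with a log2 fold change of -1.16 ± 0.34 (edgeR adjusted p = 0.181).

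The genes that work with these families were examined as 4 lists of 54 genes, of which 50 were tested. After 2i treatment 1 rose and 5 fell, after AA+2i 3 rose and 6 fell, and after AA 1 rose and 1 fell. Over all genes tested the shares called higher and lower were 1.59% and 2.83% with 2i, 3.93% and 4.41% with AA+2i, and 0.866% and 0.470% with AA. Of the adhesion adaptors (23 of 25 tested) Tns1 and Vcl fell with 2i, and Tns1, Vcl and Ptk2 with AA+2i. Tns1 encodes tensin, which links integrin tails to actin, and fell from 16 ± 7.18 TPM in DMSO (SD, n = 3) to 2.95 ± 0.122 with 2i and 2.65 ± 0.684 with AA+2i. Vcl encodes vinculin, a load-bearing protein of focal adhesions, and its log2 fold change was -1.04 ± 0.22 with 2i and -1.37 ± 0.23 with AA+2i. Ptk2, the focal adhesion kinase, fell by 0.70 ± 0.19 with AA+2i (edgeR adjusted p = 0.0473). The median log2 fold change of the 23 was 0.09 with 2i and 0.00 with AA+2i. Of the basement membrane partners (12 tested) 2 fell with 2i and with AA+2i, Nid1 (nidogen, which binds the laminin gamma chain; 4.39 ± 2.03 TPM in DMSO, 0.953 ± 0.140 with 2i and 1.22 ± 0.180 with AA+2i) and Ntn4 (netrin-4, a laminin-related protein; 10.7 ± 4.69, 3.89 ± 0.830 and 2.14 ± 0.239 TPM).

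Ligands of integrins other than laminin (9 of 10 tested) included 3 genes that rose with AA+2i. Spp1, osteopontin, rose from 5.50 ± 1.24 TPM in DMSO to 22.8 ± 4.45 with AA+2i, Cdh1 (E-cadherin, the ligand of the integrin of Itgae and Itgb7) from 43.2 ± 9.89 to 123 ± 21.5, and Thbs2 (a thrombospondin) from 5.29 ± 1.90 to 10.9 ± 3.49. With AA alone Cdh1 rose to 92.4 ± 8.92 TPM and Tnc, tenascin C, fell from 0.543 ± 0.221 to 0.110 ± 0.0436. Npnt, nephronectin, named because it was the only ligand called higher with 2i, went from 9.23 ± 2.03 to 18.9 ± 4.30 TPM. Tnc was at 1.12 ± 0.265 TPM with 2i, a log2 fold change of 1.25 ± 0.36 that was not called (edgeR adjusted p = 0.0853). Itga9, a receptor for tenascin C and osteopontin, was at 1 to 3 counts a library in the groups with the inhibitors. Of the 6 membrane partners Cd9, a tetraspanin, fell by 0.87 ± 0.21 with 2i (edgeR adjusted p = 0.0406), and Cav1, caveolin, fell by 1.74 ± 0.30 with AA+2i (adjusted p = 0.00504). Of the 10 markers of primitive or parietal endoderm, a lineage that lays down much laminin, 7 were under 1 TPM in every library, and the summed level of 308 to 734 TPM came mostly from Sparc.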

How the data were processed

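RNA from 12 libraries of mouse pre-iPSCs (4 groups of 3 biological replicates) was sequenced with TruSeq libraries and single-end reads. The authors removed the first bases and poor reads, mapped the remainder to annotated RefSeq genes of mm9 with Bowtie2 (Bowtie in the labels) and estimated expression with RSEM 1.2.4, per the labels and the methods of the study. The expected counts that the authors deposited have no normalization and include fractions, because RSEM divides reads shared between genes, and the TPM and FPKM that the authors deposited are scaled within a library. TPM were used for levels and FPKM only to recompute 1 malformed TPM cell of a gene outside these families. The kit does not mark strand, so reads of overlapping genes cannot be told apart. Of the 36 genes 8 had whole counts in every library (tolerance 0.005).

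After rounding, edgeR 4.0.16 (R 4.3.3) was run on the expected counts with RLE factors, a filter of 10 or more counts in 3 or more libraries, quasi-likelihood dispersions and 1 mean per group over all 12 libraries (8 residual degrees of freedom), in 7 comparisons. Benjamini-Hochberg adjustment ran over all 13400 genes tested, and an adjusted p under 0.05 was called. Each standard error was obtained from the fold change and the F statistic of the test. P-values measure the spread between these samples of 1 line. The alternatives were TMM factors, DESeq2 1.42.0, limma 3.58.1 on log2(TPM + 1), 2 other count filters, only the groups compared, a replicate block, a GC correction (a loess curve per library, span 0.4, with GC content known for 99.28% of tested genes), both together, and leaving out libraries or letters. The edgeR, DESeq2 and limma fits were tested on simulated counts in 2i against DMSO, with limma there on CPM in place of TPM. 1 further gene that matches the rule is not reported here and stayed in the fits over all genes. Members, gene lists and motifs were chosen with earlier results of these data known. Members with an adjusted p under 0.05 in a comparison or a group mean of at least 10 TPM were given by library. From the lists of partner genes, those called against DMSO were named, at most 4 a list by size of change, with Npnt added. No STRING or gene ontology analysis was made, and array data were not used here.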

Additional observations from a re-analysis of the deposited data

How the results depend on the processing

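The 19 calls of named members kept their direction under all 24 alternatives that gave a value for them, and no call changed sign. Lamb1 stayed called against DMSO in both comparisons with 2i under every alternative. Lama3 did so too, except that without letter B its call in AA+2i was lost. Whichever letter was left out, the calls of Itga8, Lama2, Itga9 (2i against DMSO) and Lama3 (AA+2i against 2i) were lost. The call of Itgb2 (AA+2i against DMSO) was lost without letter A and without letter C, and without letter B Itgb2 had no value. The number of members called did change. Called higher with AA against DMSO were 1 (Lama3) with DESeq2, limma, the replicate block, the GC correction and both together, in place of 0, and called lower 2 with DESeq2, 1 with the block, 2 with the GC correction and 4 with both. Over all genes tested 2.07%, 1.22%, 2.35%, 2.56% and 5.57% were then called higher, in place of 0.866%. The shares called lower were 1.31%, 2.08%, 1.62% and 5.28%, in place of 0.470%. In 2i against DMSO 5 were called lower with DESeq2, 8 with the block, 7 with the GC correction and 11 with both, in place of 3, and the share of all genes called lower was 5.04%, 8.18%, 7.48% and 14.2% in place of 2.83%. In AA+2i against DMSO 8 were called lower with DESeq2, 12 with the block, 10 with the GC correction, 10 with both, 3 with limma, 3 with at least 10 counts in every library and 2 with only the groups compared, in place of 5 (all genes called lower 7.31%, 16.3%, 10.7%, 19%, 5.30%, 3.75% and 2.23% in place of 4.41%), and 2 were called higher with the block and with both. With the block and with both, 15.3% and 17.2% of all genes were called higher, in place of 3.93%. In AA+2i against AA the number was 8 with the block, 8 with the GC correction, 12 with both and 2 with at least 10 counts in every library, in place of 4. The shares of all genes called were 14.9%, 15%, 27.6% and 4.43%, in place of 6.1%. In AA+2i against 2i the number of members was 0 with limma and with only the groups compared, and in 2i against AA 13 with the block and the GC correction together and 3 with at least 10 counts in every library, in place of 6. All genes called in AA+2i against 2i were 1.3% with limma and 1.05% with only the groups compared, in place of 0.91%. In 2i against AA they were 30% with both corrections and 6.65% with the stricter filter, in place of 9.45%. The stricter filter tests fewer members; otherwise the cause was not tested. Leaving out a library or a letter gave 0 to 1 called higher in AA+2i against DMSO (the 1 is Itgb5 without DMSO B), 2 to 4 called lower in 2i against DMSO, 1 to 6 in AA+2i against DMSO, 1 to 5 in AA+2i against AA, 0 to 1 in AA+2i against 2i and 2 to 6 in 2i against AA. Over all genes, 0.0311% to 5.04% were then called higher in AA+2i against DMSO. Called lower were 0.0777% to 3.18% in 2i against DMSO and 0.109% to 5.49% in AA+2i against DMSO. In either direction, 0.0544% to 6.65% were called in AA+2i against AA, 0% to 1.19% in AA+2i against 2i and 0.56% to 10.3% in 2i against AA. The letters A, B and C are not stated to pair the RNA libraries. Deviations from the group means correlated between -0.588 and 0.894 over 18 pairs of the same letter, and 11 of 12 libraries correlated best with a library of their own letter. The mean was 0.401 within letters and -0.196 between letters. Deviations cancel out within a group, so a positive mean within letters brings a negative mean between letters. The latter is no separate observation. The letters were not taken as pairs in the main fit because no pairing of the RNA libraries is stated. The best matches are a hint from the data, not the design, and correlations of both signs do not decide the question. If the letters do pair libraries, the main fit leaves that pairing out. In AA+2i against DMSO it called 1117 of all genes, and the fit with the block 4229. With the block Itga6 was called lower with 2i (-0.87, adjusted p = 0.00444) and with AA+2i (-1.09, adjusted p = 0.000889), and Lama3 higher with AA (adjusted p = 0.0175). The block also called Itgb1 (adjusted p = 0.0236 and 0.00227) and Lama4 (0.00218 and 0.000199) lower with 2i and with AA+2i. Lamc1 (0.0342) and Itgav (0.0279) were called lower with AA+2i in that fit. No fit of only the groups compared was made for the interaction. Depth limits Itga8, Itga9, Itgb2 and Lama2, whose lowest libraries had 1 to 7 counts.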
